A study of Mus musculus with 3 samples.

Results

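Podoplanin (PDPN) is a small membrane glycoprotein of basal mammary epithelium, lymphatic endothelium and some stromal cells, and it was used here to divide mouse mammary cells sorted as negative for CD36, a fatty acid receptor. Bulk RNA sequencing of 1 CD36- PDPN- library (below, the PDPN- library) was compared with that of 1 CD36- PDPN+ library (the PDPN+ library), 2 of the 3 libraries of the series. The third, CD36+ PDPN- (the CD36+ library), was used to ask what both CD36- libraries share. In what follows PDPN-, PDPN+ and CD36+ name these libraries. All 3 were total RNA of mouse mammary epithelial cells that carry PROCR (protein C receptor), and all were gated, per the labels, on EpCAM and on high CD49f, which is integrin alpha 6. The titles call the PDPN- and CD36+ cells Cdh5 positive and the PDPN+ cells Cdh5 negative, after the endothelial cadherin gene. No treatment is listed, and the sources used here give no strain, age, number of mice or number of cells. The study title names TCF4 and ID3 as a switch of mammary epithelial stem cell differentiation. Genes were taken as members where they were protein-coding and reached 40 CPM (counts scaled for the depth of the library) in either CD36- library, which held for 4804 of 21786 protein-coding genes. Of these, 3689 passed in the PDPN- library and 3862 in the PDPN+ library.

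With 1 library for each population, no value has a replicate error, a test is not possible, and p-values are absent. Every difference compares 2 libraries, not 2 populations. Ranges after a fold are exact 95% intervals from the read counts, and they cover counting error only. The libraries held 51138993 (PDPN-), 63871266 (PDPN+) and 67675778 (CD36+) estimated counts, so sampling error is small for most members. The labels name 2 extraction kits, 2 library kits (a low-input kit for limited RNA and a stranded kit that removes ribosomal RNA) and 2 sequencers without saying which library went through which, so kit and population cannot be told apart. Rn7sk, a small RNA without a poly(A) tail, stood at 23.5 CPM in PDPN-, 2.01 in the PDPN+ library and 43.4 in the CD36+ library, and its part in the results was not tested. Genes of the mitochondrial genome held 2.11%, 2.07% and 2.08% of counts in the same order. In bulk RNA, fewer cells of a type and less RNA per cell cannot be told apart.

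The mammary duct is a bilayer in which luminal cells face the lumen and basal cells touch the basement membrane. Basal cells express keratins 5 and 14 and the transcription factor p63 and contract through smooth muscle proteins. Around the ducts lie blood vessels, whose endothelium expresses VE-cadherin, VEGF receptors and Tie receptors. In venules it also displays selectins and chemokine-binding receptors that slow passing leukocytes. High endothelial venules, best known from lymph nodes, are specialised venules that decorate mucin-like proteins with sulfated sugars for L-selectin and present homing chemokines.

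The genes of the sort came first, since they check the labels. Pdpn (chromosome 4, 143267431 to 143299564, minus strand of mm10) had 32.3 CPM in PDPN-, 830.2 in the PDPN+ library and 12.5 in the CD36+ library. The PDPN+ library thus held 25.7-fold more (24.4 to 27.0), in the direction of its label. Cd36 stood at 1523 CPM in PDPN-, 45.1 in the PDPN+ library and 4766 in the CD36+ library. The 2 libraries sorted as CD36 negative therefore differed 33.8-fold in Cd36 RNA (32.6 to 34.99). Cdh5 stood at 206 CPM in PDPN-, 0.176 (13 counts) in the PDPN+ library and 465 in the CD36+ library, in the direction of the titles. Epcam, the epithelial adhesion gene of the gate, was lower in the PDPN- library at 104 CPM than in the PDPN+ library at 560.1, a 5.41-fold difference (5.25 to 5.57), and stood at 50.7 in the CD36+ library. Itga6, the CD49f gene, stood at 399, 1021 and 436 CPM in the same order, and Procr at 528, 208 and 746. Epcam, Itga6 and Procr thus had over 50 CPM in all 3 libraries.

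The labels give all 3 libraries as epithelial, and the markers divided them. The 22 pan-endothelial markers summed to 7640 CPM in PDPN-, 232 in PDPN+ and 10656 in CD36+, and all 22 reached 1 CPM in PDPN-. The 16 basal epithelial markers summed to 713, 9041 and 477 CPM in the same order. Dst alone gave 362 CPM of the CD36+ sum, whereas the highest in the PDPN- library was Sfn at 213 CPM. Of the 16, at least 1 CPM was reached by 13 in PDPN-, 16 in PDPN+ and 9 in CD36+. On these markers the PDPN- library stood with endothelium and the PDPN+ library with basal epithelium, and the epithelial label of the PDPN- library is not borne out by its leading genes. The 17 leukocyte markers summed to 77.3, 7.88 and 45.6 CPM, of which Fcer1g alone gave 57.4 in the PDPN- library, while Ptprc (CD45) was at 0.970, 0.798 and 1.10 CPM. The 16 luminal epithelial markers summed to 368 CPM in PDPN-, 915 in PDPN+ and 446 in CD36+. Fibroblast markers summed to 141 CPM in PDPN-, 728 in PDPN+ and 189 in CD36+. Schwann and nerve markers summed to 26.3, 355 and 9.51 CPM.

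The PDPN- and PDPN+ libraries were at least 4-fold apart in 1191 of the 4804 genes (24.8%). They split almost evenly, with 604 genes (12.6%) higher in the PDPN- library and 587 (12.2%) higher in the PDPN+ library. The median log2 ratio, PDPN- over PDPN+, was -0.08 over all members. Scaling moved that split, since upper quartile factors gave 742 higher and 437 lower, with a shift of the median by 0.39, and total counts gave 530 and 770, with a shift of -0.31. At 2-fold, 1088 genes (22.6%) were higher in the PDPN- library and 1188 (24.7%) in the PDPN+ library, and the remaining 2528 lay within 2-fold. Differences over 256-fold were seen for 82 genes on the PDPN- side and 90 on the PDPN+ side. Ratios ran on across the 4-fold line. Ripk2 (116 CPM against 28.8) lay just inside the line and Cd47 (914 against 231) just outside it, and on the PDPN+ side Cyb5r1 (22.6 against 90.9) lay inside and Dusp6 (105 against 418) outside.

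**Figure D1:**
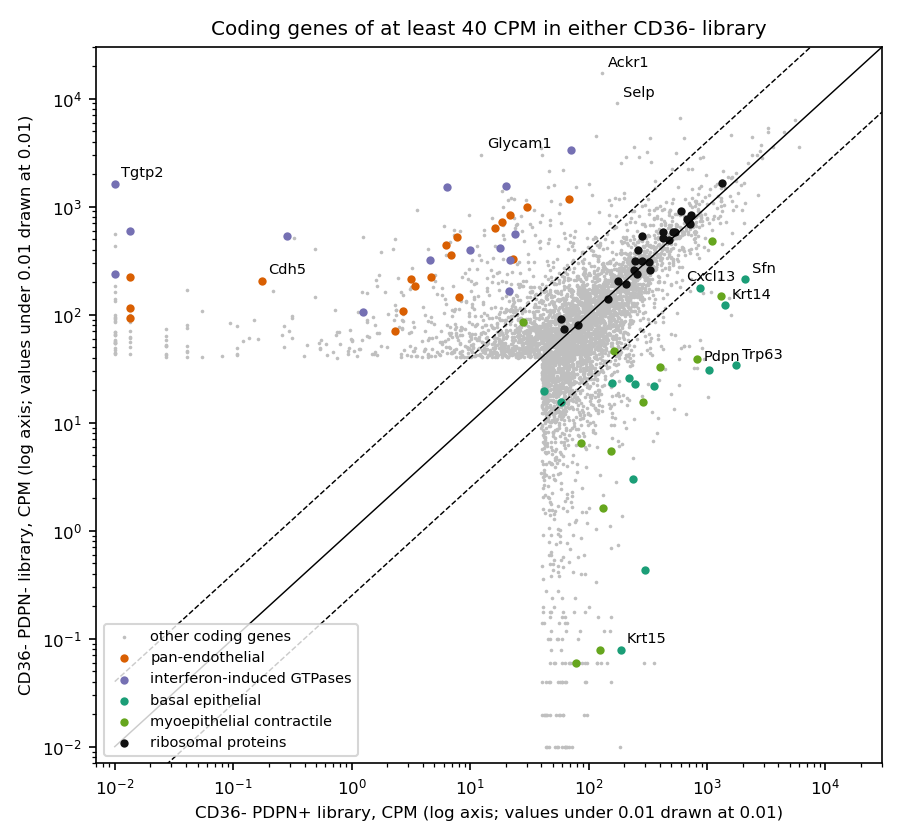
Level of each of the 4804 genes in the PDPN+ library (horizontal) and the PDPN- library (vertical), in CPM on log axes, with 1 point a gene. The solid line marks equal levels and dashed lines mark 4-fold. Pan-endothelial genes and interferon-induced GTPases lie above the upper dashed line, basal and contractile genes mostly below the lower one, and ribosomal protein genes along the solid line.

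Pan-endothelial genes were higher in the PDPN- library without exception among those that reached 40 CPM. All 19 such pan-endothelial markers were over 4-fold higher, with a median log2 ratio of 5.58, and the other 3 of the list were under 40 CPM in both libraries. Pecam1, which holds endothelial cells together, stood at 1165 CPM in PDPN-, 68.4 in the PDPN+ library and 1475 in the CD36+ library, a 17.02-fold difference between the CD36- libraries (16.5 to 17.5). Vwf, the carrier of clotting factor VIII, stood at 518, 7.69 and 724 CPM (67.4-fold, 62.0 to 73.3). Egfl7, a secreted endothelial factor, stood at 224 CPM in PDPN- and at 1 count in the PDPN+ library. Esam, a junction protein, stood at 116 CPM and likewise at 1 count. The 2 libraries did not come near each other in any of these genes, and the PDPN- library lay nearer to the CD36+ library in each. Eng, a co-receptor for TGF-beta family ligands, was 67.4-fold apart by counts (215 against 3.19 CPM) but stood at 88.6 against 22.8 TPM, the authors' length-corrected share. The deposited effective length of Eng was 715 bases in the PDPN- library and 71.2 in the PDPN+ library.

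Genes of venules led this side by level. Ackr1, which binds chemokines on venules without signalling (chromosome 1, 173331886 to 173333750, minus strand), reached 17174 CPM in PDPN-, 129 in PDPN+ and 18761 in CD36+, a 133-fold difference (131 to 136). It was second in the PDPN- library by TPM, at 21568, after mt-Atp8. Selp, P-selectin, which captures rolling leukocytes, stood at 9067, 174 and 15929 CPM (52.2-fold, 51.3 to 53.1). Sele, E-selectin, stood at 1133, 48.6 and 1662 CPM (23.3-fold, 22.6 to 24.1). Of 12 venular genes, 10 were over 4-fold higher in the PDPN- library and none was over 4-fold lower. The other 2 were Vcam1, a ligand for leukocyte integrins, at 927 against 326 CPM, and the proteoglycan gene Bgn at 44.6 against 63.96 CPM. Of 8 capillary genes, 7 were over 4-fold higher, among them the fatty acid carrier Fabp4 at 2119, 46.5 and 5286 CPM and Cd300lg at 60.9, 0.135 and 33.7 CPM. Of 4 arterial genes with 40 CPM, 1 was over 4-fold higher, Mecom, at 81.6 against 4.96 CPM.

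Receptors and regulators of vessels mostly followed the same direction. Of 10 genes of VEGF and angiopoietin signalling, 8 were over 4-fold higher in the PDPN- library and 1 lower. Kdr, the main signalling VEGF receptor, stood at 223, 4.64 and 298 CPM in the PDPN-, PDPN+ and CD36+ libraries (48.0-fold between the CD36- libraries, 43.1 to 53.7). Flt1, a high-affinity VEGF receptor, stood at 640, 16.2 and 986 CPM (39.6-fold, 37.4 to 42.0). Tek, the Tie2 receptor of angiopoietins, stood at 93.9 CPM, 1 count and 274 CPM. The ligand gene Vegfa went the other way, at 7.59 CPM in PDPN- and 57.7 in the PDPN+ library (7.60-fold, 6.84 to 8.46). Of 17 endothelial transcription factors, 13 were over 4-fold higher and none was over 4-fold lower. Among them were the ETS factors Ets1 (676 against 19.0 CPM), Fli1 (204 against 5.06) and Erg (108 against 2.73), and Nr2f2, a regulator of venous identity (390 against 9.82). Lmo2, a partner of bHLH factors in blood and endothelium, stood at 99.1 CPM and at 0 counts, an at least 2443-fold difference against a floor of 3 counts. Tcf4, the E protein of the study title, stood at 1174, 23.6 and 1190.5 CPM, and Id3 at 53.5, 60.6 and 57.6.

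A list of oxytocin, prolactin and vasoactive signalling was also mostly higher in the PDPN- library, with 8 of 11 over 4-fold higher and 1 lower. Calcrl, which forms receptors for calcitonin gene-related peptide and adrenomedullin, stood at 1159.9, 20.9 and 923 CPM in the PDPN-, PDPN+ and CD36+ libraries (55.4-fold, 52.7 to 58.4). Its partner genes divided. Ramp2 stood at 41.7, 1.11 and 49.4 CPM, whereas Ramp3 stood at 2 counts, 92.6 CPM and 0 counts. Adm, the adrenomedullin gene, stood at 57.0, 1.001 and 7.18 CPM. Ednrb, an endothelin receptor, stood at 162 CPM in the PDPN- library against 32.2 in the PDPN+ library. S1pr1, the sphingosine phosphate receptor of endothelium, stood at 506, 2.34 and 562 CPM.

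Interferon-induced GTPases, which attack the membranes around intracellular microbes, formed the list with the highest median of those with at least 10 members. All 14 with 40 CPM were over 4-fold higher in the PDPN- library, with log2 ratios from 2.96 to 15.61 and a median of 6.20. Tgtp2 stood at 1629 CPM (82263 counts) in the PDPN- library, 0 counts in the PDPN+ library and 1127 CPM in CD36+, so it was at least 40166-fold higher in the PDPN- library. Its neighbour Tgtp1, a near-identical copy, stood at 1512, 6.33 and 577 CPM, so how reads were divided between the 2 copies is uncertain. Gbp3 stood at 235 CPM, 0 counts and 343 CPM (at least 5805-fold). Gbp4 stood at 1563, 19.9 and 998 CPM (78.4-fold, 74.4 to 82.6), and Igtp at 395, 9.94 and 325 CPM (39.8-fold, 37.0 to 42.9). Irgm1 had the smallest gap of the list, at 165, 21.3 and 242 CPM (7.77-fold, 7.36 to 8.21). The guanylate-binding protein genes are close paralogs in clusters, and the same caution holds for single members.

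Because these genes were high together, their promoters are shown. RefSeq promoters (GRCm38.p6) were found for 9 of the 14 genes, and 8 of their 10 promoters held the letters GAAANNGAA on either strand within 250 bases before the start, a short form of the interferon-stimulated response element. The share over all 32851 promoters was 7.13%. It was 12.2% for the genes over 4-fold higher in the PDPN- library (456 of 604 with a promoter), 5.20% for those higher in the PDPN+ library (438 of 587) and 6.16% for genes within 2-fold. Ifi47 and one of the Gbp3 promoters held no match in this window. A match is a run of letters, not a measured binding site. The 100 bases before the annotated start are printed for 4 genes that lie on chromosomes 3 and 11, 5′ to 3′ on the strand of the gene, with the matched letters in capitals (TTC first where the match is on the other strand).
Gbp3 (chr3:142559944-142560043, plus strand, 2 overlapping matches): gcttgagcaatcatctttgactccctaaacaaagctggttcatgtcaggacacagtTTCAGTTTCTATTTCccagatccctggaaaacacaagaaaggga
Gbp7 (chr3:142530236-142530335, plus strand): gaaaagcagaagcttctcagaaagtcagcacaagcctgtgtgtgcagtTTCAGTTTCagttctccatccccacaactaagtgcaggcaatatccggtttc
Igtp (chr11:58199456-58199555, plus strand): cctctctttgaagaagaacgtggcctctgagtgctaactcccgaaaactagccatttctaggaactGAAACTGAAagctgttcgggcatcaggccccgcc
Tgtp2 (chr11:49064213-49064312, minus strand): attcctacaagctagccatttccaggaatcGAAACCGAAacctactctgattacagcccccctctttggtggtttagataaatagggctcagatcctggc
In these 4 promoters the matches lie between 34 and 70 bases before the start. Gbp7, whose match reads the same letters as the first of Gbp3, stood at 559, 23.9 and 417 CPM in the PDPN-, PDPN+ and CD36+ libraries.

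Other genes of the interferon response were higher in the PDPN- library in 9 of 12 cases at 4-fold, and 10 of 12 at 2-fold. Isg15, a ubiquitin-like modifier, stood at 85.2, 4.64 and 55.9 CPM in the PDPN-, PDPN+ and CD36+ libraries, and Rtp4 at 162 CPM, 0 counts and 234 CPM. Cxcl9, an interferon-induced chemokine, stood at 183, 1.65 and 306 CPM. Of 11 genes of class I antigen presentation, 5 were over 4-fold higher and 9 over 2-fold. B2m, the invariant chain of class I molecules, stood at 4294, 636 and 4012 CPM (6.75-fold, 6.68 to 6.82), and the immunoproteasome gene Psmb8 at 325, 19.1 and 273 CPM (17.05-fold, 16.1 to 18.0). All these PDPN- levels lay within 2-fold of the CD36+ library. NF-kappa B genes were fewer, with 4 of 9 over 4-fold higher, among them the inhibitor gene Nfkbia at 2848 against 205 CPM. The chemokine and cytokine list was mixed, with 7 of 16 over 4-fold higher in the PDPN- library and 3 in the PDPN+ library. Over all members the shares were 12.6% and 12.2%. The list median log2 ratio was 0.53. On the PDPN- side, the cytokine genes Csf3 and Il6 stood at 4493 against 116 CPM and 1522 against 78.8 CPM. On the other side, Cxcl14 stood at 49.5 against 907 CPM.

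Many of these genes are neighbours. Runs of at least 3 genes past 4-fold in the same direction, each within 100 kb of the next, included Gimap8, Gimap9, Gimap4, Gimap6, Gimap1 and Gimap5 with Tmem176a on chromosome 6 (48647234 to 48847071). Gimap6, a GTPase of lymphocytes and endothelium, stood at 993, 19.1 and 1025.5 CPM (52.0-fold between the CD36- libraries). Similar runs were the Gbp genes on chromosomes 3 (142530342 to 142638008) and 5 (105077630 to 105293698), and Psmb8, Tap2, H2-Ab1, H2-Aa and H2-Eb1 on chromosome 17 (34197721 to 34316674). On the PDPN+ side the run with most genes was Krt15, Krt14, Krt16 and Krt17 on chromosome 11 (100131758 to 100261029). Genes that are not members, or are under 4-fold apart, can lie between those of a run.

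**Figure D2:**
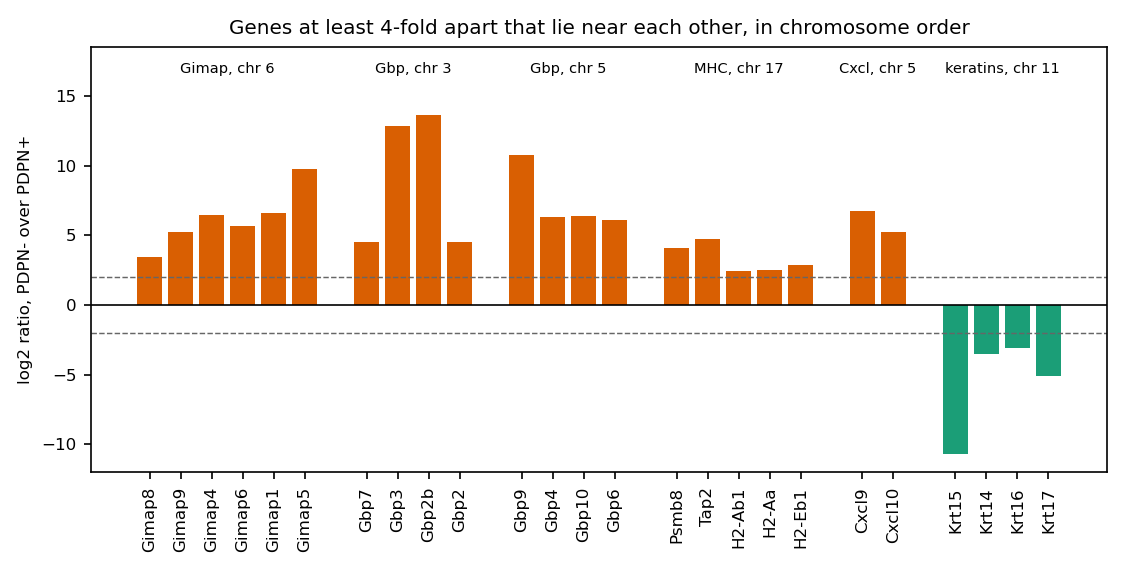
Log2 ratio of CPM, PDPN- over PDPN+ (vertical), for genes of 6 groups of neighbours in chromosome order, with 1 bar a gene, starting at 0. Dashed lines mark 4-fold. Bars above 0 (higher in PDPN-) fill the Gimap, Gbp, MHC and Cxcl groups, and all 4 keratin bars lie below 0.

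A smaller set was high in the PDPN- library alone. Of the 604 genes, 418 (69.2%) stood within 2-fold of the CD36+ library, beside 71.3% of all 4804 members, while 84 were at least 4-fold above it as well as above the PDPN+ library (1.75% of the 4804). These ratios share the PDPN- library. Several of the 84 are known from high endothelial venules. Glycam1 (chromosome 15, 103562759 to 103565081, minus strand), a mucin-like ligand of L-selectin in lymph node venules and also a milk gene, stood at 3021 CPM in PDPN-, 12.3 in the PDPN+ library and 12.5 in the CD36+ library (245-fold between the CD36- libraries, 230 to 262). Ccl21a, a homing chemokine that is also made by lymphatic endothelium, stood at 3463, 39.8 and 34.4 CPM (87.0-fold, 83.9 to 90.2). Reads of Ccl21a cannot be told from those of its near-identical copies. Enpp2, which makes lysophosphatidic acid, stood at 2889, 268 and 62.3 CPM. Of the enzymes that take part in building L-selectin ligands, which were named after their values were seen and form no fixed list, 3 were among the 84, with Chst4 at 94.5 CPM, 0 counts and 1 count, Fut7 at 49.1 CPM and 0 counts in both others, and Gcnt1 at 244 CPM, 16.7 CPM and 3 counts. Others stood near their CD36+ level, the sialyltransferase St3gal6 at 430 CPM, 0 counts and 308 CPM and the sulfotransferase Chst2 at 108, 23.9 and 117 CPM. Madcam1, another venular addressin, was not among them, at 2 counts, 14.4 CPM and 6.15 CPM.

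The same set held genes of other kinds. Ubd, a ubiquitin-like protein induced by inflammation, stood at 828, 9.74 and 10.8 CPM in the PDPN-, PDPN+ and CD36+ libraries. Serpina1b, an antitrypsin gene with near-identical copies beside it, stood at 514, 0.325 and 16.9 CPM. Cd74, the invariant chain of class II molecules, stood at 895, 123 and 59.4 CPM (7.28-fold between the CD36- libraries, 7.12 to 7.45). The class II chain genes H2-Ab1 (259, 47.4 and 40.8 CPM), H2-Aa (51.1, 9.11 and 7.48) and H2-Eb1 (64.2, 8.61 and 10.1) were also highest in the PDPN- library, so all 4 class II members at 40 CPM were over 4-fold higher in the PDPN- library. Beside them, Fcer1g, an Fc receptor chain of leukocytes, stood at 57.4 CPM, 0 counts and 21.4 CPM, while the leukocyte genes Ptprc, Cd3e and Lyz2 stood at 0.970 CPM or less in the PDPN- library. The 12 lymphatic markers summed to 4895, 1074 and 1381 CPM, most of it Ccl21a and Fgl2 (1280, 107 and 1277 CPM) in the PDPN- library. Of the 5 at 40 CPM, Ccl21a, Fgl2 and Nts were over 4-fold higher in the PDPN- library, whereas Pdpn itself was over 4-fold and Mmrn1 over 2-fold higher in the PDPN+ library. Prox1, the master regulator of lymphatic endothelium, stood at 21.1, 6.15 and 18.1 CPM, and Lyve1 at 2, 14 and 1 counts. The part of leukocytes or lymphatic cells in these levels was not tested.

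**Figure D3:**
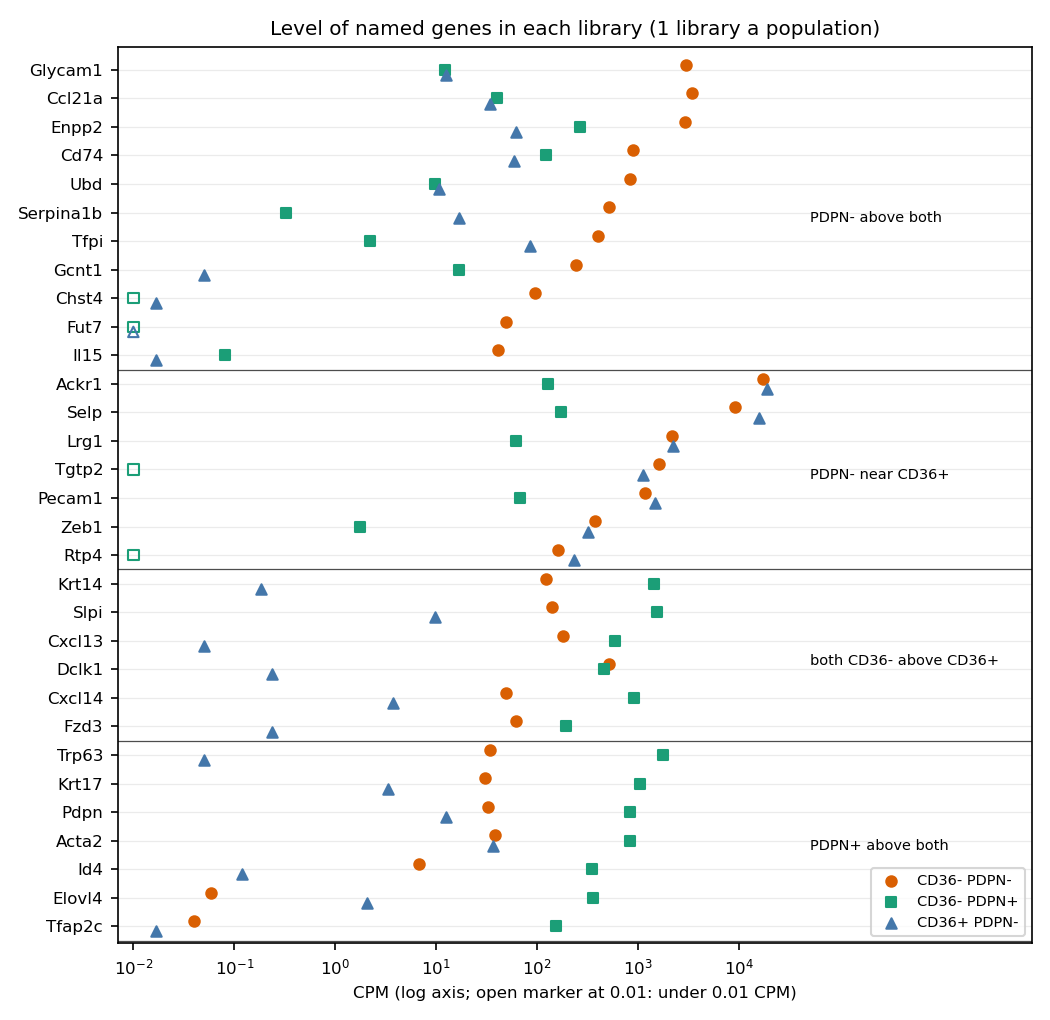
CPM of named genes (log axis) in the PDPN- (circles), PDPN+ (squares) and CD36+ (triangles) libraries, 1 library a population, with open markers at 0.01 for values under 0.01 CPM. From top to bottom the groups are genes high in the PDPN- library alone, genes with the PDPN- level near the CD36+ level, genes with both CD36- libraries above the CD36+ library, and genes high in the PDPN+ library.

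Basal epithelial genes were higher in the PDPN+ library. Of 14 basal markers with 40 CPM, 12 were over 4-fold and the other 2, Lamb3 and Bcl11b, over 2-fold higher there, with a median log2 ratio of -3.48. Trp63, which encodes p63 (chromosome 16, 25683763 to 25892102, plus strand), had 34.1 CPM in PDPN-, 1753 in PDPN+ and 3 counts in CD36+ (51.4-fold between the CD36- libraries, 49.1 to 54.0). Krt14 stood at 123, 1425 and 0.186 CPM (11.6-fold, 11.3 to 11.9), and Krt5, its partner in the basal filament, at 3.03, 239 and 18.4 CPM (78.8-fold, 67.2 to 93.0). The gap was thus wider for Krt5 than for Krt14. Krt15 stood at 4 counts in the PDPN- library and 186 CPM in PDPN+. Of 8 keratin genes, 6 were over 4-fold higher in the PDPN+ library. The luminal keratins Krt8 (84.4 against 326 CPM) and Krt18 (145 against 284) were under 4-fold. Of the 3 luminal markers with 40 CPM, the other was Gata3, over 4-fold higher in the PDPN+ library (log2 ratio -5.63).

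Slpi, a secreted protease inhibitor, was the most abundant of the genes over 4-fold higher in the PDPN+ library by TPM, at 3888, and stood at 142 CPM in PDPN-, 1541 in PDPN+ and 9.68 in CD36+ (10.9-fold, 10.6 to 11.1). Sfn, an epithelial 14-3-3 protein, stood at 213, 2108 and 38.1 CPM (9.92-fold, 9.72 to 10.1), and Serpinb5, the epithelial serpin maspin, at 21.6 CPM, 357 CPM and 0 counts (16.5-fold, 15.5 to 17.5). Their promoters are shown because each holds the E-box CACCTG, so the matches printed were fixed by that choice. E proteins and zinc-finger repressors of epithelial genes can bind this sequence. RefSeq promoters were found for 9 of the 16 basal markers, and 5 of their 11 promoters (45.5%) held CACCTG on either strand within 250 bases before the start. The share was 17.2% over all promoters, 17.6% for genes over 4-fold higher in the PDPN+ library, 12.7% for those higher in the PDPN- library and 11.7% within 2-fold. Of the motifs searched, CACCTG had the highest share on the basal list, followed by CAGCTG at 27.3%. GAAANNGAA and CCGGAAGT were in none of the 11 promoters. In the promoters of the pan-endothelial list the CACCTG share was 11.8%. The matched letters are in capitals, as CAGGTG where the match is on the other strand.
Sfn (chr4:133602169-133602268, minus strand): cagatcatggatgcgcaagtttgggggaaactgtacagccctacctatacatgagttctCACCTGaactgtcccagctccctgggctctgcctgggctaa
Serpinb5 (chr1:106861075-106861174, plus strand): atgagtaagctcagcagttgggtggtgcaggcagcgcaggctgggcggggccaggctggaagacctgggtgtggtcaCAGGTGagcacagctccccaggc
Slpi (chr2:164356508-164356607, minus strand): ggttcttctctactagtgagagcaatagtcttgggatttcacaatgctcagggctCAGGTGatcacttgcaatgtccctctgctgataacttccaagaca
The matches lie 41, 23 and 45 bases before the start, and no binding was measured. Slpi is not on the basal marker list and was chosen after its values were seen.

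Factors that set the basal state followed the markers, with 7 of 9 basal and epithelial transcription factors over 4-fold higher in the PDPN+ library. Runx1 stood at 11.9, 659 and 8.46 CPM in the PDPN-, PDPN+ and CD36+ libraries (55.3-fold between the CD36- libraries, 51.1 to 60.1), and Id4, an inhibitor of bHLH factors, at 6.79, 352 and 0.118 CPM (51.7-fold, 46.5 to 57.7). Sox9 stood at 57.7, 879 and 29.9 CPM (15.2-fold, 14.7 to 15.8). Tfap2c, an AP-2 factor of mammary epithelium, stood at 2 counts, 154 CPM and 1 count. Bhlhe41, a clock-related repressor, did not follow, at 6370, 5572 and 8548 CPM. The switch factors of epithelial and mesenchymal state split, with Zeb1 at 377, 1.77 and 318 CPM (213-fold higher in the PDPN- library, 179 to 254) and Snai2 at 14.8 CPM, 104 CPM and 4 counts (7.04-fold higher in the PDPN+ library, 6.53 to 7.60). Cdh1, the epithelial cadherin, stood at 37.0, 215 and 0.861 CPM.

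Contractile genes of myoepithelium were over 4-fold higher in the PDPN+ library in 9 of 12 cases, with a median log2 ratio of -3.98. Acta2, smooth muscle actin, stood at 38.4, 829 and 37.0 CPM in the PDPN-, PDPN+ and CD36+ libraries (21.6-fold, 20.6 to 22.6), and Myh11, smooth muscle myosin, at 15.4, 289 and 16.3 CPM (18.7-fold, 17.4 to 20.2). The PDPN- level of both lay near that of the CD36+ library. Synm, an intermediate filament gene, was higher in the PDPN- library, at 85.1 against 28.2 CPM. Desmosome and hemidesmosome genes, which fix basal cells to each other and to the basement membrane, were over 4-fold higher in the PDPN+ library in 7 of 11 cases. Dsp, desmoplakin, stood at 47.2, 313 and 55.9 CPM (6.63-fold, 6.36 to 6.92), and Jup, plakoglobin, at 9.55, 154 and 22.9 CPM. Dsg2, a desmosomal cadherin, went against the list at 238, 65.2 and 16.59 CPM (3.65-fold higher in the PDPN- library, 3.53 to 3.78). Lama3, a chain of the laminin that anchors hemidesmosomes, stood at 0.436, 297 and 6.93 CPM (682-fold, 450 to 1088).

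Ligands and receptors of growth pathways divided between the libraries. Egfr, the EGF receptor, stood at 0.396 CPM in PDPN-, 92.7 in the PDPN+ library and 0.422 in the CD36+ library (234-fold, 151 to 383). Its ligand genes went opposite ways, with Hbegf at 690, 25.1 and 1235 CPM and Epgn at 0 counts, 46.0 CPM and 0 counts. Nrg1, a ligand of ErbB receptors, stood at 8 counts, 154 CPM and 6.11 CPM. Of 10 Wnt pathway genes, 6 were over 4-fold higher in the PDPN+ library and 1 in the PDPN- library. Lgr5, an R-spondin receptor and epithelial stem cell marker, stood at 1.37, 191 and 0.777 CPM (140-fold, 110 to 179). The receptor gene Fzd1 stood at 3 counts, 118 CPM and 4.65 CPM, and Fzd4, which also serves vessels, at 133, 8.34 and 169 CPM (15.9-fold higher in the PDPN- library, 14.7 to 17.3).

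The BMP and TGF-beta list was mixed, with 2 of 18 over 4-fold higher in the PDPN- library and 7 in the PDPN+ library. Acvrl1, the endothelial receptor ALK1, stood at 64.5 CPM, 0 counts and 61.2 CPM in the PDPN-, PDPN+ and CD36+ libraries (at least 1590-fold higher in the PDPN- library). Fst, the activin-binding protein follistatin, stood at 22.5, 583 and 21.5 CPM (25.96-fold higher in the PDPN+ library, 24.5 to 27.6). Of 5 Notch genes, 1 was over 4-fold apart, the ligand gene Jag1 at 159, 924 and 168 CPM (5.80-fold higher in the PDPN+ library). Over all 4804 members, 12.6% were over 4-fold higher in the PDPN- library and 12.2% in the PDPN+ library, together 24.8%. The 2 of 18 higher in the PDPN- library and the 1 of 5 apart were thus no larger than the background. Interstitial matrix genes were over 4-fold higher in the PDPN+ library in 7 of 13 cases and lower in 1. Dcn, the proteoglycan decorin, stood at 47.8, 423 and 43.1 CPM (8.85-fold, 8.49 to 9.23), and Fbln2, a fibulin, at 132, 21.4 and 193 CPM. Other genes led the PDPN+ side by ratio. Serpinf1, an anti-angiogenic serpin, stood at 72.8 CPM against 0 counts in both other libraries (at least 1225-fold between the CD36- libraries). Elovl4, a fatty acid elongase, stood at 359 CPM against 3 counts in the PDPN- library, Pappa, a protease of IGF-binding proteins, at 295 CPM against 3 counts, Scn7a, a sodium channel gene of glia, at 192 CPM against 4 counts, and Sfrp1, a Wnt inhibitor, at 91.5 CPM against 1 count.

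Genes that act with podoplanin at the membrane did not follow it as a group. Of 12 partners and actin linkers with 40 CPM, 4 were over 4-fold higher in the PDPN+ library, Pdpn included, and none in the PDPN- library, with a median log2 ratio of 0.00. Cd44, a hyaluronan receptor that binds podoplanin, stood at 65.0, 534 and 19.4 CPM in the PDPN-, PDPN+ and CD36+ libraries (8.22-fold between the CD36- libraries, 7.93 to 8.52). The linkers of membrane to actin went different ways. Ezr, ezrin, stood at 48.6, 198 and 51.3 CPM and was just over 4-fold higher in the PDPN+ library, while Msn, moesin, stood at 972, 369 and 1220 CPM, 2.64-fold higher in the PDPN- library (2.60 to 2.67), and Rdx, radixin, at 559, 415 and 435 CPM. Rhoa (347 against 345 CPM) and Rock1 (412 against 414 CPM), which act downstream of these linkers, were level in the CD36- libraries.

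Metabolic and blood-facing lists held members far apart in both directions, with median log2 ratios from 0.09 for glycolysis and hypoxia to 1.502 for caveolae and transcytosis. Of 9 fatty acid genes, 4 were over 4-fold higher in the PDPN- library and 3 in the PDPN+ library. Meox2, a regulator of endothelial fatty acid uptake, stood at 70.0 CPM in PDPN- and 1 count in the PDPN+ library, whereas Acsl4, an acyl-CoA synthetase, stood at 216 and 1292 CPM (5.99-fold higher in the PDPN+ library, 5.87 to 6.11). Of 19 glycolysis and hypoxia genes, 4 were over 4-fold higher in the PDPN- library, among them Hif1a (1209 against 166 CPM), and 2 in the PDPN+ library. Of those 2, Hk2, a hexokinase, stood at 0.178, 74.7 and 10.2 CPM in the PDPN-, PDPN+ and CD36+ libraries (419-fold, 221 to 917). Of 12 coagulation genes, 4 were over 4-fold higher in the PDPN- library and 1 in the PDPN+ library. Over all 4804 members the shares were 12.6% and 12.2%, so the 2 of 19 and 1 of 12 higher in the PDPN+ library were no larger than the background. Thbd, thrombomodulin, the partner of PROCR in activating protein C, stood at 748, 47.1 and 1276 CPM (15.9-fold, 15.3 to 16.5), and Nt5e, which makes adenosine, at 1198, 22.3 and 1747 CPM (53.8-fold, 51.2 to 56.5). Plau, urokinase, was the member higher in the PDPN+ library, at 6.32 against 42.6 CPM. Of 11 genes of caveolae and transcytosis, 5 were over 4-fold higher in the PDPN- library, and Lrp1, an endocytic receptor, was higher in the PDPN+ library at 47.8 against 1.76 CPM. Cav1, caveolin, was 4.79-fold higher in the PDPN- library by counts and stood at 495 against 154 TPM, under 4-fold.

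**Figure D4:**
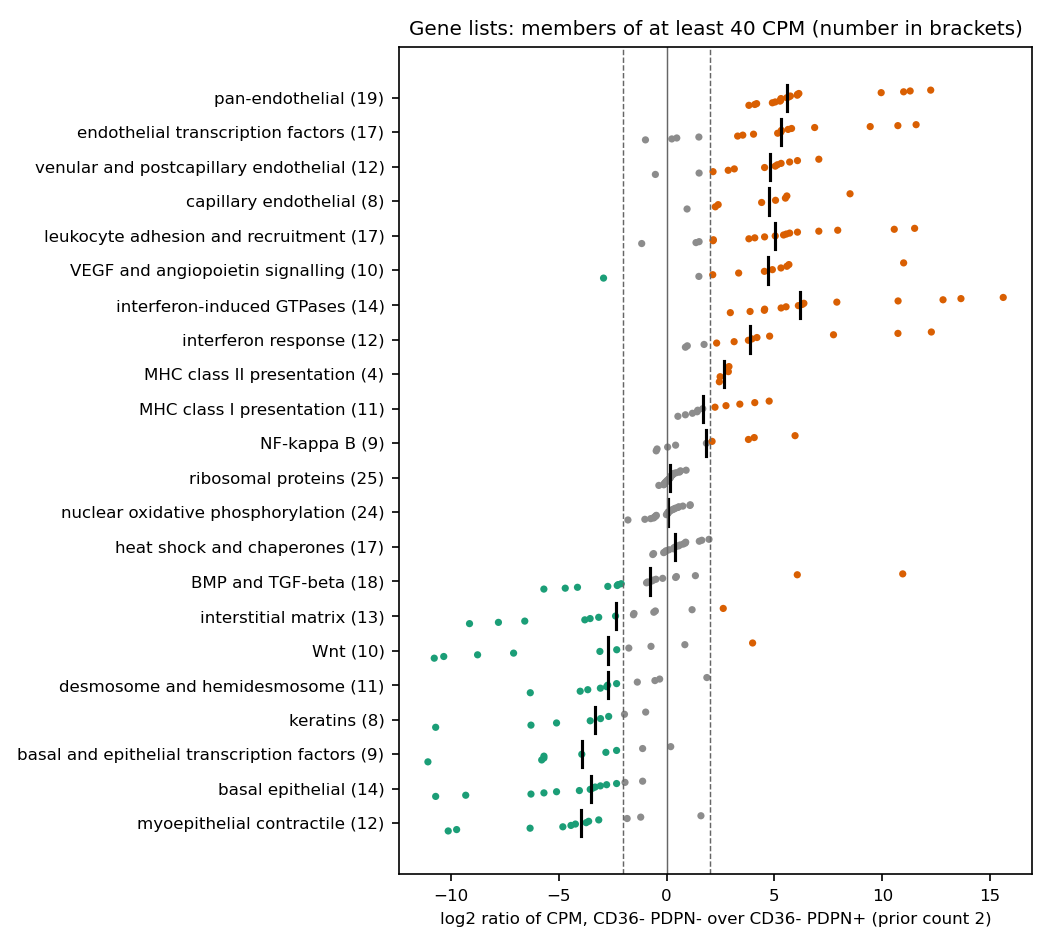
Log2 ratio of CPM, PDPN- over PDPN+ (horizontal), for members of 22 gene lists with at least 40 CPM in either library, 1 point a gene, with black bars at list medians and dashed lines at 4-fold. The medians run from 6.20 for interferon-induced GTPases, through 0.16 for ribosomal proteins, to -3.98 for contractile genes. A gene can be on more than 1 list.

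Genes of general cell function were close in both libraries. All 25 ribosomal protein genes lay within 2-fold (median log2 ratio 0.16), as did 20 of 24 nuclear genes of oxidative phosphorylation (median 0.07) and 14 of 17 heat shock genes (median 0.40). These 3 medians change sign with scaling, so their directions carry no weight. Over all 4804 members, 2528 lay within 2-fold. Ftl1, a ferritin chain, stood at 3570 CPM in PDPN- and 3575 in the PDPN+ library, and Hsp90aa1, a chaperone, at 2794 and 2920 CPM. Of the 2747 genes with 40 CPM in both CD36- libraries, 915 (33.3%) lay within 0.32 of each other on the log2 scale. Of 19 immediate early genes, which respond to tissue dissociation among other signals, 4 were over 4-fold higher in the PDPN- library and 1 in the PDPN+ library. The shares over all members were 12.6% and 12.2%. Within 2-fold lay 9 of the 19, so this list was no closer than the members as a whole. Atf3 stood at 109, 2.37 and 229 CPM in the PDPN-, PDPN+ and CD36+ libraries, whereas Fosl1 stood at 17.6, 280 and 111 CPM, and Fos was level at 153 and 150 CPM in the CD36- libraries.

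The share of genes apart did not vanish at high levels. Over all protein-coding genes with a mean of 160 CPM or more in the pair, 216 of 1171 (18.4%) were over 4-fold apart, 155 of them higher in the PDPN- library and 61 in the PDPN+ library. Between the PDPN- and CD36+ libraries the same level gave 11 of 1241 (0.886%). Below that, with a mean of 20 to 40 CPM, 29.6% were apart between the CD36- libraries and 21.3% between the PDPN- and CD36+ libraries. Some members had almost no reads in the lower library. Of the 604 genes higher in the PDPN- library, 69 had 10 counts or fewer in the PDPN+ library (30 had none), and of the 587 higher in the PDPN+ library, 95 had 10 or fewer in the PDPN- library (14 had none). At least 10 CPM in CD36+ was reached by 53 of those 69 genes and by 33 of those 95. Among the 33 was Alas1, the first enzyme of haem synthesis. Alas1 stood at 0 counts in the PDPN- library, 59.2 CPM in PDPN+ and 31.8 CPM in CD36+. Whether such zeros reflect the cells or the library was not tested.

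**Figure D5:**
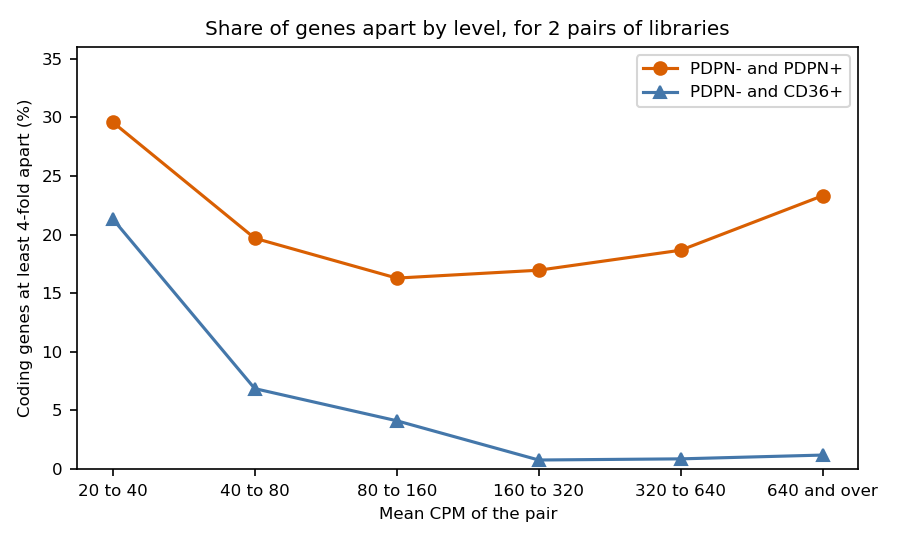
Percentage of protein-coding genes at least 4-fold apart (vertical) by mean CPM of the pair (horizontal), for PDPN- against PDPN+ (circles) and PDPN- against CD36+ (triangles). The first pair stays between 16.3% and 29.6% at all levels, while the second drops from 21.3% to 1.20% or less from 160 CPM upward.

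Finally, both CD36- libraries were set against the CD36+ library. These ratios share the CD36+ library, so what was peculiar to that 1 library cannot be told apart from CD36. Of the 2747 genes with 40 CPM in both CD36- libraries, 71 (2.58%) were over 4-fold above the CD36+ library in both, while the PDPN- library alone was above it in 97 (3.53%) and the PDPN+ library alone in 135 (4.91%), the shared 71 included. Cxcl13, the chemokine that draws B cells, stood at 181 CPM in PDPN-, 588 in PDPN+ and 3 counts in CD36+. Dclk1, a microtubule-associated kinase of tuft and neural cells, stood at 510.3, 456 and 0.236 CPM (14 counts). Fzd3, a Wnt receptor, stood at 61.7, 194 and 0.236 CPM. In 54 of the 71 genes the CD36- libraries lay within 2-fold of each other. In 15 the PDPN+ library was over 2-fold higher, among them Krt14, Slpi and Cxcl14 (49.5, 907 and 3.73 CPM), and in 2 the PDPN- library was. In those 3 genes the PDPN- level lay between the other libraries.

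In the other direction, 70 of 3782 genes with 40 CPM in CD36+ (1.85%) were over 4-fold lower in both CD36- libraries. The PDPN- library alone was lower in 218 (5.76%) and the PDPN+ library alone in 677 (17.9%). In 25 of the shared 70 the CD36- libraries lay within 2-fold of each other. In 20 the PDPN+ library was over 2-fold higher than the PDPN- library, and in 25 it was over 2-fold lower. Only 2 of the 70 reached 40 CPM in either CD36- library. Car4, a carbonic anhydrase of capillary endothelium, stood at 50.5 CPM in CD36+ and at 0 counts in both CD36- libraries. The globin genes Hbb-bs (51.6 CPM) and Hba-a2 (41.9 CPM) were also at 0 counts in both. Btnl9, another capillary gene, stood at 1.58 CPM in PDPN-, 1.60 in the PDPN+ library and 72.1 in the CD36+ library, and Igf1, a growth factor, at 25.1, 23.6 and 209 CPM. The Car4, globin and Btnl9 levels were low in both CD36- libraries, while Cd36 RNA was under 4-fold lower in the PDPN- library (1523 against 4766 CPM). The capillary list as a whole did not follow Car4 and Btnl9. Its 13 markers summed to 5138 CPM in PDPN-, 467 in PDPN+ and 10049 in CD36+. Of the 8 with 40 CPM in either CD36- library, 7 were over 4-fold higher in PDPN- than in PDPN+. Of the 587 genes higher in the PDPN+ library, 348 were over 4-fold above the CD36+ library as well (7.24% of the 4804). These ratios share the PDPN+ library, whose high value chose the genes.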

How the data were processed

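RNA of 3 libraries, 1 a group, was measured by bulk sequencing, and groups were taken from the labels. The submitters' processing notes name Salmon 0.9.1 and mm10. The authors deposited, per the file headers, estimated counts and TPM with effective lengths for 52661 gene identifiers a library. The sources used here give no annotation release, strand setting or read filter. Estimated counts were rounded. Symbols, biotypes and coordinates came from GENCODE M21, which matched 52566 identifiers without version (50410 with it). Counts were scaled by TMM over all 3 libraries in edgeR 4.0.16 (R 4.3.3) and given as CPM, and log2 ratios used a prior count of 2. A gene was called apart at 4-fold with at least 40 CPM in the higher library. Nothing was tested, since each group had 1 library. Intervals are exact (Clopper-Pearson, 95%). A fold against 0 counts used a floor of 3 counts in that library (0.0594 CPM in PDPN-, 0.0406 in PDPN+ and 0.0507 in CD36+) and reads "at least", and no fold is given against 1 to 4 counts, except where its interval is printed. Intervals and floors cover counting error only, since reads carry no molecular identifiers and may be PCR copies. Ratios were checked on simulated data.

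The members, the 57 gene lists and the named genes were chosen with earlier results of these data known. List medians and counts cover members with at least 40 CPM in either CD36- library and describe, with no list test. The named genes were those of the sort and titles, the 25 with the largest ratio in each direction (without predicted genes and those of ribosomal proteins), the 10 highest by TPM in each CD36- library, the 10 nearest the 4-fold line on each side, up to 6 members a list by mean CPM with members past 4-fold against their list, and the 15 most shared by both CD36- libraries. Not all of them are named in the text, and other genes, among them Slpi, Madcam1, S1pr1, Alas1 and Gimap6 and those set out from the genes above both other libraries, were chosen after their values were seen.

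RefSeq promoters were searched on both strands over 250 bases before the start. The letters of 6 motifs stand beside their shares in the text. The others were CAGGAAGT (ETS-type), GCCNNNGGC (AP-2-type) and a TEAD-type motif, GGAATG. The last was a TATA box searched with its first letters as in the usual consensus, TATAAA. Alternatives were other scalings (total counts, upper quartile, RLE, TMM over the CD36- libraries, deposited TPM with a pseudocount of 0.05), prior count 0.5, minima of 10 and 160 CPM or none, all biotypes and a 2-fold limit. Python 3.11.15 with scipy 1.17.1, pandas 2.3.3 and numpy 2.4.6 did the other calculations, and matplotlib 3.10.9 drew the figures.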

Additional observations from a re-analysis of the deposited data

How the results depend on the processing

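The main counts were 1191 genes apart, 604 higher in PDPN-, 587 higher in PDPN+, 71 and 70 genes with both CD36- libraries above or below CD36+, 915 near-equal (within 0.32 on the log2 scale) and 32 of 51 lists with a median beyond 1 on the log2 scale. With a minimum of 10 CPM they were 2952, 1228, 1724, 393, 335 and 1400, with 160 CPM 364, 238, 126, 6, 4 and 343, and with no minimum 5950, 2300, 3650, 1169, 953 and 2733, since fewer or more genes entered. A 2-fold limit gave 2276, 1088, 1188, 199 and 350. By the deposited TPM 384 were higher in PDPN-, 45 were shared above and 27 below, and by total counts 37 were shared below. The cause was not tested. Other counts stayed within 1.5 times. Ube4a reversed by TPM (log2 -0.13 against 2.02), and the lymphatic endothelial median reversed with no minimum (-0.41 against 3.33). Of 1191 genes apart, 1037 were 4-fold apart the same way by TPM and 3 had the opposite sign, Fsd1l, Spata5 and Ube4a. Of 291 named genes apart, 247 kept the call under every scaling. TMM over the CD36- libraries gives no value for the CD36+ library. No paired analysis was possible because each group had 1 library. Depth limits folds against libraries at or near 0 counts.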

Other observations

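Noncoding genes were outside the set of protein-coding members. Of 90 with at least 40 CPM in either CD36- library, 7 were over 4-fold higher in the PDPN- library, 10 were higher in the PDPN+ library and 52 lay within 2-fold. Among the 4804 protein-coding members the shares were 12.6% and 12.2%, and 2528 lay within 2-fold. The noncoding genes were thus apart no more often than the coding members. Meg3, a maternally expressed imprinted RNA, had 10.1 CPM in PDPN-, 97.1 in PDPN+ and 10.7 in CD36+. Mir99ahg, the host of a microRNA cluster, stood at 0.574, 44.7 and 0.878 CPM. In the other direction Gm16587 stood at 55.9 CPM, 0 counts and 82.2 CPM, and Gm10851 at 306, 6.83 and 10.96 CPM. Meg3, Mir99ahg and Gm16587 thus had a CD36+ level nearer to that of PDPN- than to that of PDPN+, and Gm10851 was high in the PDPN- library alone.

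Of the other motifs searched in promoters, CCGGAAGT, an ETS-type sequence, was in 1.69% of promoters of genes over 4-fold higher in the PDPN- library, 3.05% of those higher in the PDPN+ library and 7.54% of those within 2-fold. TGANTCA, an AP-1-type sequence, was in 8.63%, 4.66% and 4.20% in the same order. CAGCTG, another E-box, was in 16.8%, 10.6% and 9.85%. GGGANTTTC, an NF-kappa B-type sequence, was in 1.86%, 1.08% and 0.432%. Over all promoters the shares of these motifs, in the order named, were 2.88%, 6.75%, 13.0% and 0.941%. Over the promoters of all members they were 5.93%, 4.90%, 10.7% and 0.685%. The 1.86% for GGGANTTTC rests on 11 promoters. These shares describe letters and were not tested.

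Members with a longer deposited length were apart more often in both directions. Length here is the deposited length, not the effective length, averaged over the CD36- libraries. It was deposited with the counts and was not taken from the gene annotation. Its median was 261 bases over the 1602 members with the shortest values and 1736 bases over the 1602 with the longest. The length of the genes themselves was not tested. In the third of members with the shortest length, 8.11% were over 4-fold higher in the PDPN- library and 8.24% in the PDPN+ library. In the third with the longest, the shares were 17.5% and 16.2%.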
